A study of Mus musculus with 3 samples.

Results

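The genes described here are 8 enzymes of cholesterol synthesis, Hmgcs1, Idi1, Fdps, Fdft1, Sqle, Lss, Cyp51 and Dhcr7. They were chosen by name, with earlier results of these data known, through every probe whose RefSeq accession belongs to one of these symbols. That gave 10 of the 39429 distinct probes on the array and 8 of its 21153 named genes: Hmgcs1 and Fdft1 have 2 probes each and the others 1. No uptake gene is among the 8; such genes are described further on from a separate list.

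RNA was compared on 3 two-colour Agilent arrays, labelled biological replicates 1 to 3. The arrays carried RNA of mouse Hopx-/- embryoid bodies given 12.5 µM XAV939, a tankyrase inhibitor that lowers Wnt signalling through β-catenin (called null with XAV939 below). This RNA was set against that of Hopx+/- embryoid bodies, for which the labels name no inhibitor (called het). Both were taken at day 8 of cardiac differentiation, from embryonic stem cell lines derived from blastocysts on STO feeder cells and kept on mouse embryonic fibroblasts; the labels do not say how many lines there were. Hopx, a homeodomain protein without DNA binding of its own, acts in the developing heart. Since the cultures differ in both at once, genotype and inhibitor cannot be told apart. The arrays hold bulk RNA, in which fewer cells of a type and less RNA per cell cannot be told apart.

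Cholesterol is built from acetyl-CoA. The first enzymes make mevalonate and turn it into isoprenoid units, these are joined into farnesyl diphosphate and squalene, and squalene is closed into lanosterol, which later enzymes trim to cholesterol. When the membrane of the endoplasmic reticulum is low in sterol, Scap carries the SREBP transcription factors to the Golgi, where they are cut free to switch on nearly all of these enzymes and genes of lipoprotein uptake. In the embryo, sterols are membrane building material and are also needed to lipidate Hedgehog proteins.

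Each ratio is log2 of null with XAV939 over het, so a value of 1 is a doubling and a value below 0 is lower in null with XAV939. Levels are log2 normalised intensities, which can be compared between cultures for a probe but not between probes. The labels put null RNA in Cy5 on all arrays, yet across tested probes the log ratio of replicate 3 had correlations of -0.88 and -0.91 with those of replicates 1 and 2. Between replicates 1 and 2 the correlation was 0.96. The authors' deposited values for replicate 3 have the opposite sign to its scanner ratio, and its ratio was turned here to match them. The direction is therefore likely, not settled. If replicates 1 and 2 were the reversed arrays, every higher and lower given here would change places, the 8 enzymes would be lower, and 4850 genes would be higher and 4636 lower. Hopx was lower in null with XAV939 on replicates 1, 2 and 3, by -2.65, -2.75 and -2.73 on the log2 scale. Probes well above background made up 56.6% to 68.0% of a channel.

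All 8 enzymes were higher in null with XAV939 than in het, at an adjusted p below 0.05 by limma over 14710 genes. Over all genes the same test called 31.5% higher and 33.0% lower, 64.5% in all, so that a call alone says little in this comparison. Because the 8 were chosen with earlier results of these data known, their count is a description and not a test. The median ratio of the 8 was 1.02 on the log2 scale, and that of all tested genes was -0.01. The ratio was 1 or more for 4 of the 8, and 7.78% of all tested genes were called higher at that size. In all 8, the lowest of the 3 null with XAV939 levels lay above the highest het level, which held for 33.5% of all tested genes. Every probe behind these values was well above background in both cultures on 3 of 3 arrays, and none was saturated.

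**Figure D1:**
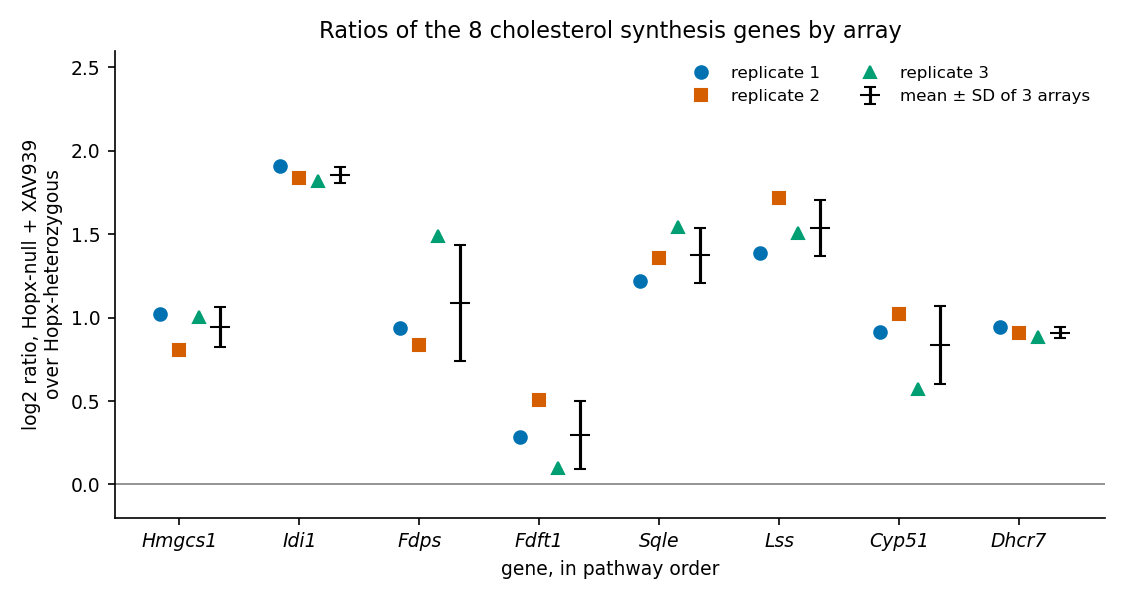
Log2 ratio of null with XAV939 over het for the 8 enzymes, with 3 points a gene for replicates 1 to 3 and the mean with its SD. All points lie above 0, and the means run from 0.30 for Fdft1 to 1.86 for Idi1.

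The order by mean ratio was Idi1, Lss, Sqle, Fdps, Hmgcs1, Dhcr7, Cyp51 and Fdft1. Of neighbours in this order, Idi1 and Lss, and Cyp51 and Fdft1, had ranges over the 3 arrays that did not meet. The other neighbours overlapped, so their order is within the spread between arrays. Among all tested genes, 98.5% had a lower ratio than Idi1, 91.3% a lower ratio than Hmgcs1 and 69.1% a lower ratio than Fdft1.

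The promoters are shown because most of these enzymes are known targets of SREBP, which acts beside the factors NF-Y and SP1 on such genes. The sequences are from RefSeq (GRCm38.p6) and run from 250 bases before to 50 after a gene's start, read 5′ to 3′ on the gene's strand. Windows were held for 5 of the 8 enzymes, in 7 windows since Dhcr7 has 3 starts, and Sqle, Fdps and Fdft1 are only named. Capitals mark the NF-Y box, CCAAT or its reverse complement ATTGG, and the sterol regulatory element TCACNCCAC.
Hmgcs1, chr13:119690101-119690400, plus strand: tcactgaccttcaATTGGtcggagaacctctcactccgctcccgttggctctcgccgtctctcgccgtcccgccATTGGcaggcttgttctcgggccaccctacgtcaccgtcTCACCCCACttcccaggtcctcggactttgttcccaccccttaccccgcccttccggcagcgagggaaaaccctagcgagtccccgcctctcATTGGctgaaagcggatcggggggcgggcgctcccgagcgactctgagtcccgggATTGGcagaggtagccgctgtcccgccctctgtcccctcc
Idi1, chr13:8885356-8885655, plus strand: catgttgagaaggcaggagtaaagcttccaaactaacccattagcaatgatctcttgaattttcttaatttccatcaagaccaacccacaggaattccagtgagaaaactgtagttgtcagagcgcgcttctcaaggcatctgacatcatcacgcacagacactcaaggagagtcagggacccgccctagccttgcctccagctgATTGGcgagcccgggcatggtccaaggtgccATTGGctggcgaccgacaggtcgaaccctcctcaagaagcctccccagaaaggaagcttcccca
Lss, chr10:76531355-76531654, plus strand: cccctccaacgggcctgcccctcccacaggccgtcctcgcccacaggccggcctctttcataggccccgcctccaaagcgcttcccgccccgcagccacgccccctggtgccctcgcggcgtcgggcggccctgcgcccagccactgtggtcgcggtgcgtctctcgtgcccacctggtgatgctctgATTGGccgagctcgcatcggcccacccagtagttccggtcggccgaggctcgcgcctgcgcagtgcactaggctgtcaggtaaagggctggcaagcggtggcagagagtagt
Cyp51, chr5:4104648-4104947, minus strand: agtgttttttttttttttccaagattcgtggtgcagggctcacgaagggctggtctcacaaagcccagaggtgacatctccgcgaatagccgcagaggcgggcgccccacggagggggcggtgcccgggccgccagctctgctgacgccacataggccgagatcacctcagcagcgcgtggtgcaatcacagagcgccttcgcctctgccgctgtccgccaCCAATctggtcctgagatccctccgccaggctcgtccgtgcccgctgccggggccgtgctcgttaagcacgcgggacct
Dhcr7, the start farthest along the chromosome, chr7:143829964-143830263, plus strand: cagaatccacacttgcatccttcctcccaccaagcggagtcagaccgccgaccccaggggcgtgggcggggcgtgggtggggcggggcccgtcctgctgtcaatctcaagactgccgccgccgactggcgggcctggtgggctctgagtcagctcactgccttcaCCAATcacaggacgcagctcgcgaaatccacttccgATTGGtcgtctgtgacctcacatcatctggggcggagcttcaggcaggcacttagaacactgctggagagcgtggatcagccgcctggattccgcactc

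On either strand, CCAAT was present in a window of 5 of 5 enzymes, in 5 of their 7 windows, against 37.4% of 32851 mouse promoter windows of the same length. The windows without CCAAT were the Dhcr7 starts that are not shown. In the Idi1 window CCAAT stood at positions -45 and -14 from the start, on the minus strand, and in the Dhcr7 window shown at -85 and -49. The SP1 box GGGCGG, not capitalised, was in 6 of the 7 windows and in a window of all 5 enzymes, against 35.7% of all windows. The window without it was also a Dhcr7 start that is not shown. The sterol element TCACNCCAC was found in Hmgcs1 alone, as TCACCCCAC at position -137, against 1.24% of all windows. Of 12 further cholesterol enzymes with windows, 10 held CCAAT, 11 held GGGCGG and none held TCACNCCAC. A match is a run of letters, not a measured binding site.

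Hmgcs1 makes HMG-CoA, the substrate from which mevalonate is formed. Its level was 14.56, 14.61 and 14.69 in null with XAV939 replicates 1, 2 and 3, against 13.53, 13.81 and 13.69 in het. The cultures did not overlap, and the ratio of 0.95 ± 0.12 (SD, n = 3) is 1.93-fold (adjusted p = 5.54e-05). The second Hmgcs1 probe, far dimmer, had ratios of 0.28, 0.36 and 0.32, and passed the test over all probes at adjusted p = 0.0191. Both probes were higher on each array, but the dimmer one by less. Over all tested probes 28.7% were called higher.

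Idi1 interconverts the isoprenoid units, isopentenyl and dimethylallyl diphosphate. It had levels of 13.66, 13.78 and 13.80 in null with XAV939, against 11.75, 11.94 and 11.98 in het. This was the largest ratio of the 8 and among the steadiest, at 1.91, 1.84 and 1.82 on replicates 1, 2 and 3, a mean of 1.86 ± 0.05 (SD, n = 3) or 3.62-fold (adjusted p = 9.88e-07).

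Fdps joins isoprenoid units into farnesyl diphosphate, where the sterol route parts from those to dolichol, ubiquinone and protein prenylation. It had levels of 13.62, 13.47 and 14.08 in null with XAV939, against 12.68, 12.63 and 12.59 in het. Het levels lay close together, and replicate 3 of null with XAV939 stood above the others. The ratio was 1.09 ± 0.35 (SD, n = 3), the widest spread of the 8 (2.13-fold, adjusted p = 0.000136).

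Fdft1, squalene synthase, commits farnesyl diphosphate to sterols. Its levels were 11.99, 12.19 and 11.90 in null with XAV939, against 11.70, 11.68 and 11.80 in het. The cultures were apart, but on replicate 3 by only 0.10 on the log2 scale. The mean ratio of 0.30 ± 0.20 (SD, n = 3), 1.23-fold, lay just inside the threshold (adjusted p = 0.0433). It missed the threshold without replicate 1 (0.30, adjusted p = 0.138), without replicate 2 (0.19, adjusted p = 0.362) and with the authors' processed values (0.20, adjusted p = 0.24). The second Fdft1 probe was well above background on 1 of 3 arrays in null with XAV939 and on none in het, and was not tested; its measured ratio was 0.16 ± 0.13.

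Sqle, squalene epoxidase, adds the oxygen that allows ring closure, and is known as a controlled step of the route. Its levels were 13.25, 13.31 and 13.59 in null with XAV939, against 12.03, 11.95 and 12.05 in het. All het levels lay within a narrow band, and the ratio was 1.37 ± 0.16 (SD, n = 3), or 2.59-fold (adjusted p = 8.14e-06).

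Lss closes the squalene epoxide into lanosterol, the first sterol. It had levels of 10.26, 10.63 and 10.36 in null with XAV939, against 8.88, 8.91 and 8.85 in het. The ratios of 1.39, 1.72 and 1.51 averaged 1.54 ± 0.17 (SD, n = 3), or 2.90-fold (adjusted p = 4.32e-06), and lay below those of Idi1 on every array.

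Cyp51, a cytochrome P450, removes a methyl group from lanosterol. Its levels were 10.70, 10.66 and 10.49 in null with XAV939, against 9.79, 9.64 and 9.92 in het. Replicate 3 had the smallest gap, and the ratio was 0.84 ± 0.23 (SD, n = 3), or 1.79-fold (adjusted p = 0.000255).

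Dhcr7 carries out the last reduction to cholesterol, and in humans its loss causes Smith-Lemli-Opitz syndrome. Its levels were 11.02, 10.85 and 10.89 in null with XAV939, against 10.08, 9.94 and 10.01 in het. The ratios of 0.94, 0.91 and 0.88 had the smallest spread of the 8, at 0.91 ± 0.03 (SD, n = 3), or 1.88-fold (adjusted p = 5.08e-05).

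**Figure D2:**
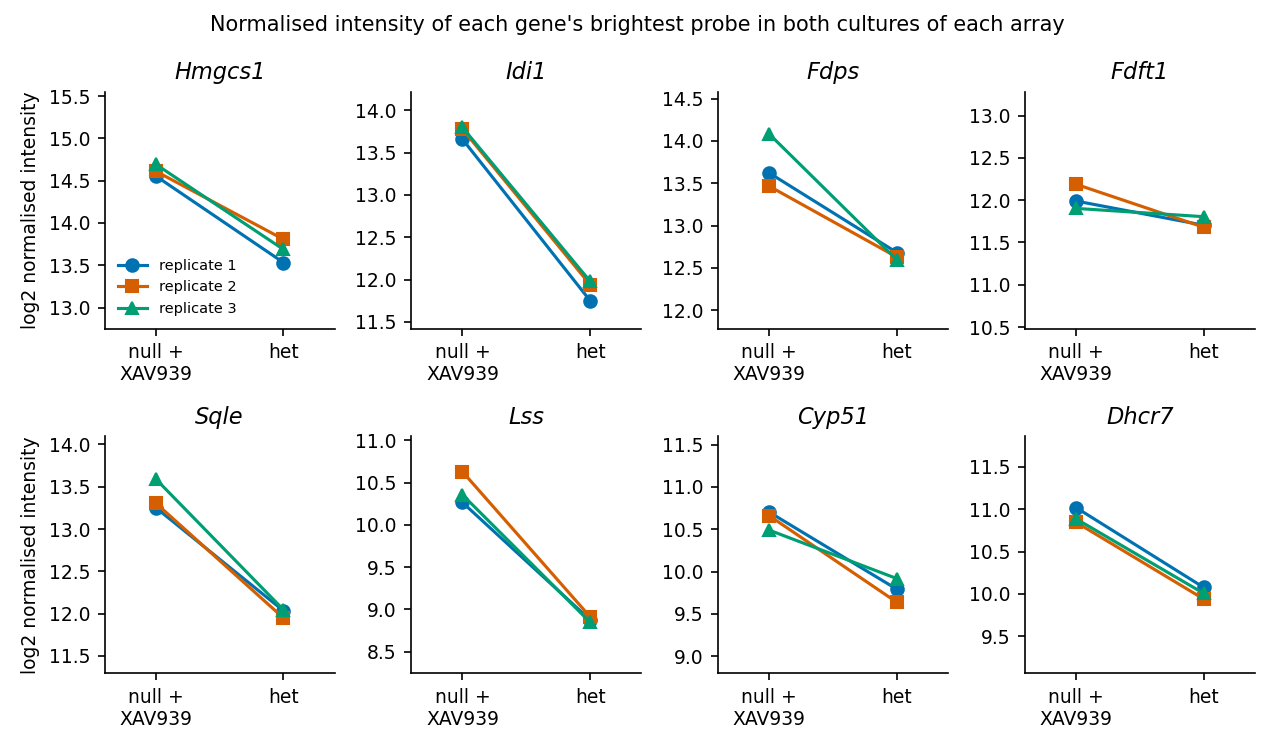
Levels of the 8 enzymes in log2 normalised intensity, null with XAV939 left of het within each gene, 1 point per replicate. In no gene do the points of the cultures overlap, and the gap is narrowest for Fdft1.

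Array 1 lay on a slide of its own, and arrays 2 and 3 shared another. The 8 ratios were above 0 on each of the 3 arrays, which held for 38.3% of all tested genes. With slide as a term in the fit, a setting added once the values had been seen, 7 of the 8 passed and Fdft1 did not (0.29, adjusted p = 0.0922). On the shared slide alone, the same 7 passed.

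The rest of the route was taken from a list of 14 further enzymes, all of them tested. Of these 11 were higher in null with XAV939 and 1 lower, against 31.5% and 33.0% of all genes, and their median ratio was 0.74. With the 8 enzymes above, 19 of 22 were higher and 1 lower, with a median of 0.86. This list and those below were likewise chosen with earlier results of these data known, and their counts are descriptions only.

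Acat2, which makes acetoacetyl-CoA, had a ratio of 0.73 ± 0.11 (adjusted p = 0.000233). The kinases that act on mevalonate were higher by 0.66 ± 0.56 for Mvk (adjusted p = 0.0116) and 0.54 ± 0.15 for Pmvk (adjusted p = 0.00187). Mvk differed widely between arrays, with ratios of 0.25, 0.43 and 1.30 on replicates 1, 2 and 3. Mvd, which forms isopentenyl diphosphate just before Idi1 acts, was higher by 1.37 ± 0.18, or 2.59-fold (adjusted p = 8.79e-06). With the local backgrounds that the scanner software marks as outliers kept, Acat2 and Mvk stayed above 0 but missed the threshold (adjusted p = 0.0676 and 0.0691).

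Among the enzymes after lanosterol, Msmo1, a sterol methyl oxidase, was the most changed, with levels of 15.22, 15.26 and 15.14 in null with XAV939, against 13.74, 13.72 and 13.89 in het. Its ratio was 1.42 ± 0.16 (SD, n = 3), or 2.68-fold (adjusted p = 6.28e-06). Hsd17b7, a sterol ketone reductase, was higher by 0.91 ± 0.05 (adjusted p = 5.16e-05), and by 0.35 on a second probe. Lbr, a nuclear membrane protein with sterol reductase activity, was higher by 0.87 ± 0.10 (0.48 on a second probe), Sc5d by 0.76 ± 0.05 and Nsdhl by 0.62 ± 0.20, with adjusted p of 8.15e-05, 0.000151 and 0.0011. A second Nsdhl probe, with a ratio of 0.20, did not pass.

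Ebp, the sterol isomerase, was the exception in direction. Its levels were 11.53, 11.57 and 11.50 in null with XAV939, against 12.54, 12.52 and 12.63 in het, and the cultures did not overlap, as in 34.7% of all tested genes in that direction. The ratio of -1.03 ± 0.09 (SD, n = 3) is 2.04-fold lower (adjusted p = 2.92e-05). Of all tested genes 9.56% were called lower with a ratio of -1 or less. Tm7sf2, a reductase that shares its step with Lbr, had a ratio of 0.18 ± 0.06 and Erg28, a scaffold of the demethylation enzymes, -0.06 ± 0.19, neither past the threshold (adjusted p = 0.136 and 0.678). A second probe of Tm7sf2 passed, at 0.34.

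**Figure D3:**
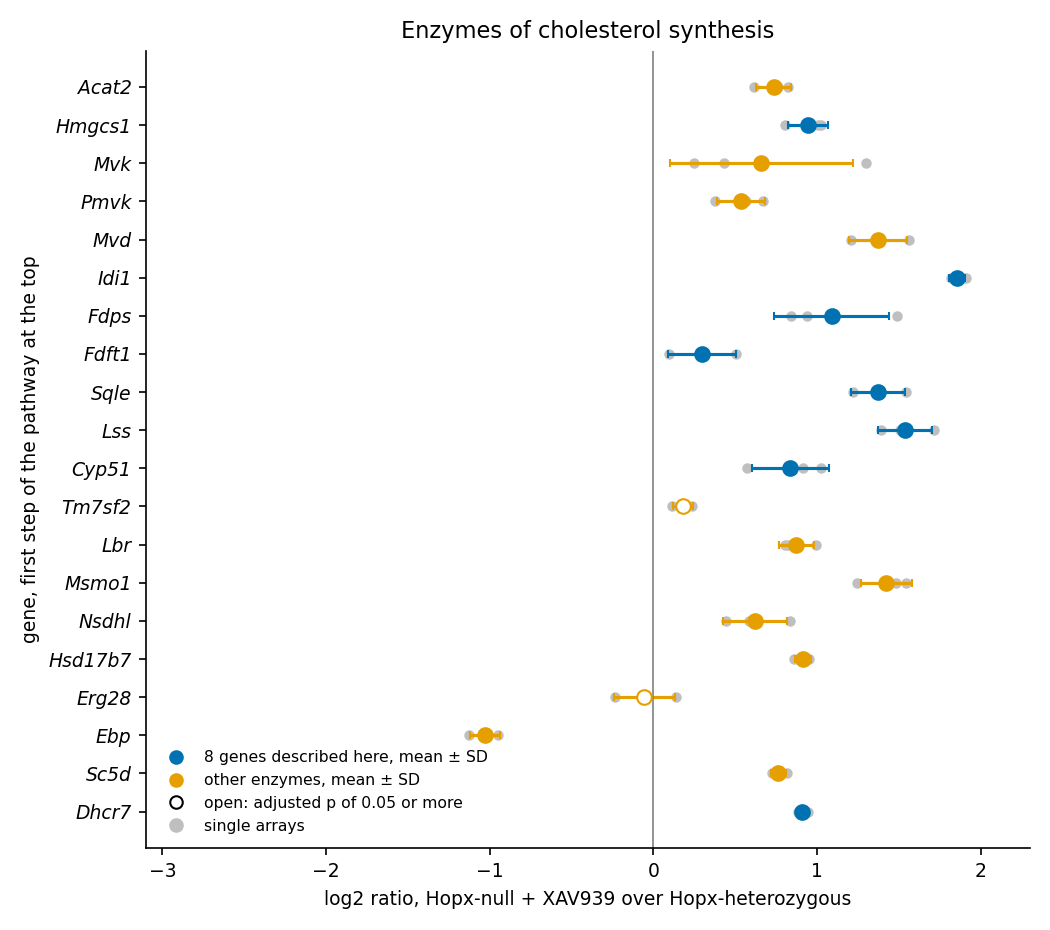
Log2 ratio of null with XAV939 over het for enzymes of the route in its order, with 3 points and the mean for each. The mean of Ebp lies below 0, those of Tm7sf2 and Erg28 lie near 0, and those of the other enzymes shown lie above 0.

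Of 13 genes that sense sterol and activate SREBP, 2 were higher and 4 lower, with a median of 0.10. The share called lower was near the 33.0% of all tested genes, and the share called higher was below their 31.5%. With marked backgrounds kept 1 was higher and 2 lower, and Srebf1, Insig2 and Mbtps2 missed the threshold (adjusted p = 0.148, 0.0675 and 0.121). Srebf1, which encodes SREBP-1, had levels of 7.73, 7.77 and 7.76 in null with XAV939, against 7.31, 7.17 and 7.37 in het, a ratio of 0.47 ± 0.11 (SD, n = 3, adjusted p = 0.00313). Without replicate 2 its ratio of 0.41 missed the threshold (adjusted p = 0.0534). Srebf2, whose product is the main activator of the cholesterol enzymes, had ratios of -0.64, -0.74 and 0.14 and did not pass (adjusted p = 0.0547). A second Srebf2 probe, at -0.10, did not pass either. Whether Srebf2 passed on its brighter probe rested on replicate 3: without that array it was lower, by -0.69 (adjusted p = 9.25e-05). With slide as a term in the fit it also passed as lower (-0.47, adjusted p = 0.0261). Scap, the escort protein, had a ratio of 0.18 ± 0.08 (adjusted p = 0.141).

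Insig1 and Insig2 hold Scap back when sterol is plentiful, and Insig1 is itself a known SREBP target. Insig1 was lower in null with XAV939, with levels of 8.43, 8.51 and 9.16, against 9.54, 9.30 and 9.56 in het. Its ratio was -0.77 ± 0.35 (SD, n = 3, adjusted p = 0.00115), against ratios above 0 for all 8 synthesis enzymes. Insig2 was lower by -0.78 ± 0.34 (adjusted p = 0.000969). Mbtps2, the site-2 protease that frees SREBP, was lower by -0.75 ± 0.07 (adjusted p = 0.000175). Rnf145, a ubiquitin ligase of the sterol pathway, was higher by 0.35 ± 0.15 (adjusted p = 0.0156), a call that was lost without replicate 1 or replicate 2 (adjusted p = 0.0582 and 0.0555).

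Uptake of LDL and release of its cholesterol from lysosomes ran mostly the other way. Of 14 genes, 3 were higher and 10 lower, against 31.5% and 33.0% of all tested genes, with a median of -0.74. With median centring in place of loess, 4 were lower and Npc1 and Npc2 missed the threshold (adjusted p = 0.0517 and 0.0535). Lrp8, a lipoprotein receptor that also binds reelin, had levels of 7.68, 8.14 and 7.56 in null with XAV939, against 6.74, 6.57 and 6.55 in het. The cultures did not overlap, and the ratio was 1.17 ± 0.34 (SD, n = 3, 2.26-fold, adjusted p = 8.18e-05); with marked backgrounds kept it was 0.56 and missed the threshold (adjusted p = 0.0814). A second, dimmer Lrp8 probe had a ratio of 0.36.

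Among the lower genes, Lipa, the lysosomal acid lipase, had levels of 8.85, 8.49 and 9.0 in null with XAV939, against 10.43, 10.22 and 10.44 in het, and a ratio of -1.58 ± 0.14 (SD, n = 3, 3.00-fold lower, adjusted p = 3.24e-06). The lysosomal membrane protein Lamp2 was lower by -1.25 ± 0.46 (adjusted p = 0.000156). Npc2 and Npc1, which pass cholesterol out of the lysosome, were lower by -0.91 ± 0.17 and -0.80 ± 0.12. Stard4, a cytosolic sterol carrier and a known SREBP target, was lower by -1.16 ± 0.12 (adjusted p = 1.65e-05), though a second probe at -0.12 did not pass.

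The list of efflux, esterification and oxysterol genes had 12 of 16 tested, 1 of them higher and 6 lower, against 31.5% and 33.0% of all tested genes, with a median of -0.30. Abcg5, Abcg8, Cyp27a1 and Cyp7a1 did not pass the filter on dim probes. Soat2, which esterifies cholesterol in liver and gut, had levels of 9.78, 9.62 and 9.42 in null with XAV939, against 12.78, 12.78 and 12.62 in het. Its ratio was -3.12 ± 0.11 (SD, n = 3), or 8.67-fold lower (adjusted p = 1.25e-07). Soat1, the widely expressed form, was lower by -1.88 ± 0.02 (3.67-fold, adjusted p = 8.95e-07). Apoe, the carrier of lipid out of many cells, was lower by -1.63 ± 0.12 (adjusted p = 2.41e-06) and was saturated in het on 1 of 3 arrays, where its het level is a lower limit.

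Abca1, the efflux pump, was lower by -0.80 ± 0.38 (adjusted p = 0.00107). Ch25h, which makes an oxysterol that blocks SREBP activation, was lower by -0.54 ± 0.08 (adjusted p = 0.0013) but well above background on only 1 of 3 arrays in null with XAV939. The gene that was higher was Cyp7b1, an oxysterol hydroxylase, at 0.53 ± 0.16 (adjusted p = 0.00212). With marked backgrounds kept 0 were higher and 3 lower, and Abca1, Ch25h and Cyp7b1 missed the threshold (adjusted p = 0.105, 0.229 and 0.183).

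The isoprenoid branch, which draws on the same farnesyl diphosphate, had 5 of 15 genes higher and 4 lower, with a median of 0.01, close to the 31.5% higher and 33.0% lower of all tested genes. Pdss1 and Pdss2, the subunits of the enzyme that makes the ubiquinone tail, were higher by 1.42 ± 0.15 and 0.95 ± 0.12; a second Pdss2 probe, at 0.20, did not pass. Rabggta and Fntb, subunits of protein prenyl transferases, were higher by 0.58 ± 0.10 and 0.57 ± 0.12, and Pggt1b, of another such enzyme, was lower by -0.71 ± 0.13. For Nus1, a subunit of the dolichol synthase, the brighter probe was lower by -1.16 ± 0.24 and the other higher by 0.37, so that no direction can be given. With marked backgrounds kept, Fntb and Pggt1b missed the threshold (adjusted p = 0.0849 and 0.0949) and 1 gene was lower. Of 34 genes on these lists with several tested probes, Nus1 was the only 1 with opposite calls, while in 17 some probes passed and others did not.

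Fatty acid genes, which SREBP-1 activates, had 12 of 17 higher and 3 lower, against 31.5% and 33.0% of all tested genes, with a median of 0.64; with marked backgrounds kept, 1 was lower. Fasn, fatty acid synthase, had levels of 9.90, 9.87 and 9.76 in null with XAV939, against 8.02, 7.71 and 8.03 in het, a ratio of 1.92 ± 0.22 (SD, n = 3, 3.79-fold, adjusted p = 1.82e-06). Acaca and Acacb, the acetyl-CoA carboxylases, were higher by 1.19 ± 0.30 and 1.12 ± 0.17, though second probes stood at 0.02 for Acaca, which did not pass, and 0.34 for Acacb. Elovl6, an elongase, and Fads1, a desaturase, were higher by 1.04 ± 0.21 and 0.97 ± 0.10. Me1, the malic enzyme that supplies NADPH, was lower by -1.41 ± 0.14 (2.65-fold, adjusted p = 6.15e-06), and by -1.97 and -0.76 on its other probes. The probes of Pnpla3 differed: the brighter was at least 1.55-fold lower (adjusted p = 0.000502), a bound, since that probe was not well above background in null with XAV939 on any array. The other, well above background in null with XAV939 on 2 arrays, stood at 0.08 and did not pass.

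**Figure D4:**
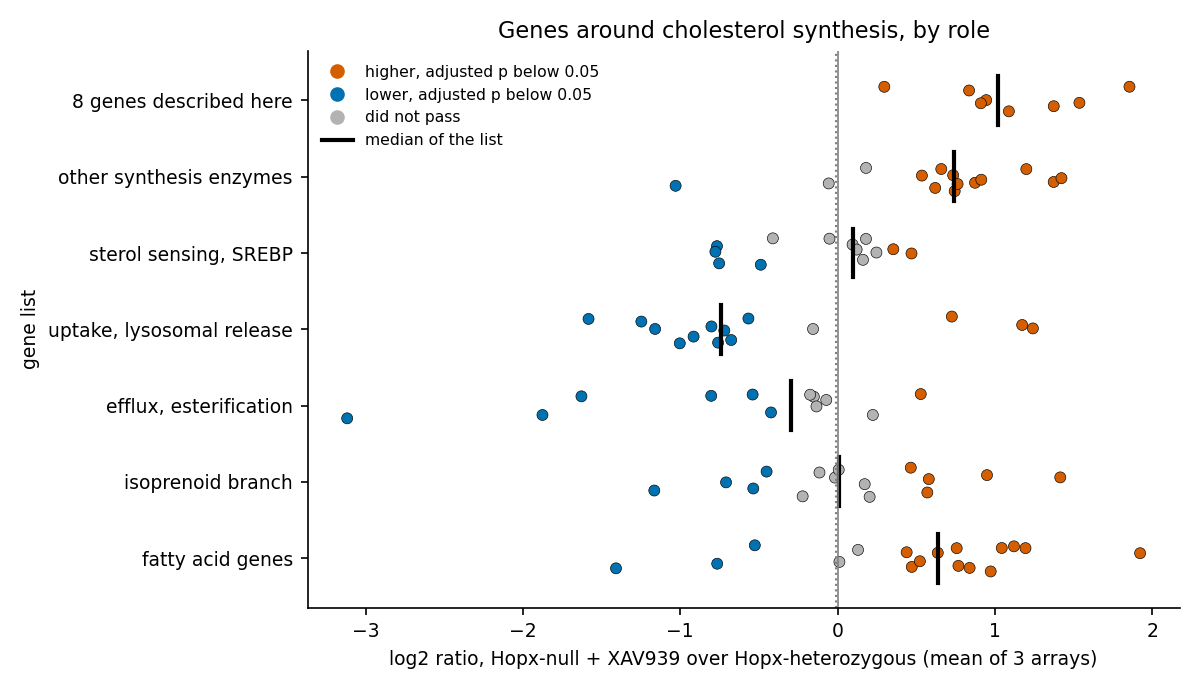
Mean log2 ratio of null with XAV939 over het for each tested gene, by list, with the median of each list. The medians are 1.02 for the 8 enzymes, 0.74 for the other synthesis enzymes, 0.10 for sterol sensing, -0.74 for uptake and lysosome, -0.30 for efflux and esterification, 0.01 for the isoprenoid branch and 0.64 for fatty acid genes.

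Markers of several cell types also differed between the cultures, in either direction. Over all tested genes 31.5% were called higher and 33.0% lower, and the counts below stand beside these shares. All 6 pluripotent and epiblast markers were higher, with a median log2 ratio of 2.17, from 0.996 for Nanog to 3.99 for Fgf5. Their summed linear intensity, in which the brightest probes weigh most, was 53298 to 88496 in null with XAV939 and 4733 to 8355 in het. All 8 endoderm markers were lower (median -3.57), at 4758 to 8599 in null with XAV939 and 66122 to 76873 in het, and all 6 cardiomyocyte markers were lower (median -1.91), at 12708 to 15476 in null with XAV939 and 51927 to 61244 in het. Of 3 neural markers tested, 2 were higher (median 2.6), at 9865 to 11027 in null with XAV939 and 1530 to 1927 in het. Of 6 cell cycle genes 4 were higher and none lower (median 0.68), at 58829 to 70205 in null with XAV939 and 37003 to 42385 in het. Of 6 fibroblast and feeder markers 1 was higher and 2 lower (median -0.18), at 18040 to 27623 in null with XAV939 and 30561 to 44359 in het. Of 4 endothelial markers 2 were higher and 1 lower (median 0.34), at 6349 to 7706 in null with XAV939 and 3918 to 4674 in het. Of 3 blood markers tested 2 were higher (median 0.39), and the sums overlapped, at 44464 to 64799 in null with XAV939 and 33393 to 47140 in het. The summed intensity of the 8 enzymes was 68416 to 78914 in null with XAV939 and 31821 to 34080 in het. The part of these cell types in the ratios of the sterol genes was not tested.

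The result for the 8 enzymes was recomputed with other backgrounds, normalizations, filters, probe rules and the authors' processed values. In the 13 alternatives with replicate 3 turned or left out, Hmgcs1, Idi1, Fdps, Sqle, Lss, Cyp51 and Dhcr7 passed in each, and Fdft1 in 6. Not all of these could move the ratios. The other filters on dim probes left the ratio of each of the 8 unchanged, and averaging over tested probes changed only that of Hmgcs1. With replicate 3 used as labelled, no gene of the 14710 passed, 40 genes had an unadjusted p below 0.05 by limma, and the 8 mean ratios ran from 0.10 for Fdps to 0.64 for Idi1. Without loess, 60.0% of all calls were higher, against 48.9% with it.

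**Figure D5:**
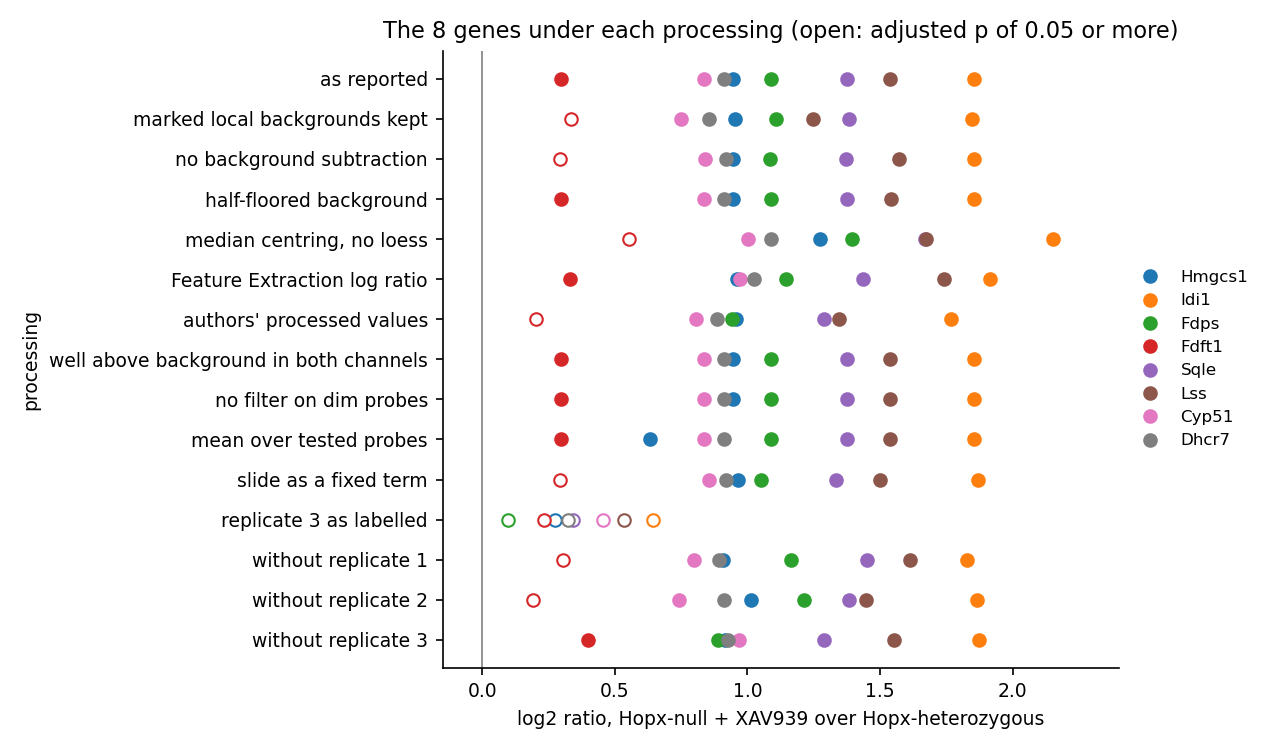
Mean log2 ratio of null with XAV939 over het for the 8 enzymes under each processing alternative, 1 point a setting. With replicate 3 turned or left out, every point lies above 0 and Fdft1 has the lowest ratio in each setting.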

How the data were processed

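Each of the 3 two-colour arrays carried RNA of both cultures, and its ratio pairs them. The deposited scanner files hold median signals and local backgrounds as intensity, made with Agilent Feature Extraction (11.5.1.1 per the file headers, 8.5.1.1 per the submitters' processing notes), its log10 ratio of Cy5 over Cy3, and marks for saturated, outlying and well above background spots, per the file headers. The authors' deposited processed values were taken as log2 ratios. On the loess log2 ratios of tested probes their slopes were 0.739, 0.891 and 0.876 for replicates 1, 2 and 3. On Feature Extraction's ratio of Cy5 over Cy3, expressed as log2, the slopes were 0.391, 0.561 and -0.508, so the scale is an assumption. The signs of their correlations with Cy5 over Cy3 (0.885, 0.945 and -0.940) give their direction. No source used here states their log base, normalization or centring.

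Signals were corrected with normexp (offset 50), with the median unmarked background of a channel put in place of local backgrounds marked as outliers, and normalized within arrays by loess in limma 3.58.1 (R 4.3.3). Replicate 3 was turned. Levels are channel values after loess and Aquantile scaling. A probe was tested where either channel was well above background on every array, and a gene was read from its brightest tested probe. The mean ratio was tested against 0, with Benjamini-Hochberg adjustment over 14710 genes and a threshold of 0.05. The test has 8.66 degrees of freedom, of which the prior gives 6.66. The p-values measure only the spread between these 3 arrays, whose number limits the precision (median SD 0.166), and nothing says that the replicates came from separate cell lines. RefSeq accessions gave 28025 probes 1 symbol, 11404 none and 0 several.

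The 8 genes and the lists were chosen with earlier results of these data known. Further genes named per list are a fixed set of pathway genes and up to 6 others with the largest ratios among those that passed with the same sign on 3 arrays. Some genes of the lists enter the counts but are not reported here singly. Promoter sequences are from RefSeq; those of Sqle, Fdps and Fdft1 were not used here. Alternatives tried were other backgrounds, normalizations, filters and probe rules, the authors' values, slide, array direction and leaving out each array.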

Additional observations from a re-analysis of the deposited data

How the results depend on the processing

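With replicate 3 as labelled, 0 genes were higher and 0 lower (40 at an unadjusted p below 0.05 by limma), so the 8 enzymes and every list had 0 higher and 0 lower; the 8 ratios, each with adjusted p = 0.995, were 0.27 for Hmgcs1, 0.64 for Idi1, 0.10 for Fdps, 0.23 for Fdft1, 0.34 for Sqle, 0.53 for Lss, 0.45 for Cyp51 and 0.32 for Dhcr7, and Mvk reversed to -0.21. With every array turned, 0 of the 8 were higher and 8 lower. With marked local backgrounds kept, 2669 genes were higher and 2260 lower, sterol sensing had 1 higher and 2 lower, efflux 0 higher and 3 lower, isoprenoid 1 lower and fatty acid 1 lower. With median centring in place of loess, 3039 genes were higher and 2023 lower, sterol sensing had 0 higher and 2 lower, uptake 4 lower, efflux 0 higher and 3 lower and isoprenoid 2 lower. The median of all genes was then 0.096, against -0.011 with loess, and relative to it the 8 ratios ran from 0.46 for Fdft1 to 2.06 for Idi1. With the authors' processed values, sterol sensing and efflux each had 0 higher. Leaving out an array gave 3505 to 5278 genes higher and 3711 to 5340 lower, 7 to 8 of the 8 enzymes higher and 0 to 3 sterol sensing genes higher.

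Fdft1 kept its sign and missed the threshold with marked backgrounds kept (0.33, adjusted p = 0.0857), no background subtraction (0.29, adjusted p = 0.0543), median centring (0.55, adjusted p = 0.136), the authors' values (0.20, adjusted p = 0.24), slide as a fixed term (0.29, adjusted p = 0.0922), without replicate 1 (0.30) and without replicate 2 (0.19); without replicate 3 it was 0.40. Hmgcs1 averaged over its probes was 0.63. Of 48 further genes, Hopx included, 12 lost their call with marked backgrounds kept (among them Mvk, Acat2, Srebf1, Insig2, Mbtps2, Lrp8, Abca1, Ch25h, Cyp7b1, Fntb, Pggt1b), 10 with median centring (among them Srebf1, Insig2, Rnf145, Npc1, Npc2, Abca1, Ch25h, Cyp7b1, Fntb), 4 with the authors' values (Mvk, Srebf1, Rnf145, Cyp7b1) and 1, Mvk, with Feature Extraction's log ratio, none changing sign. Srebf2 passed as lower with slide as a fixed term (-0.47, adjusted p = 0.0261). Slide as a random block was not run, since 0 probes gave an estimate; the fixed term was added after the data were examined. No paired analysis was possible because none is left to add: the test of each array's ratio against 0 is itself the paired analysis. The causes of these changes were not tested.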

Other observations

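The authors' deposited processed values for the 8 enzymes, whose scale and centring are not given in the sources used here, ran on replicates 1, 2 and 3 at 1.153, 0.843 and 0.869 for Hmgcs1, and at 1.807, 1.798 and 1.696 for Idi1. Fdps had 0.844, 0.614 and 1.366, with replicate 3 highest, as in the levels above. Sqle had 1.08, 1.253 and 1.537, and Lss had 1.009, 1.681 and 1.342. Cyp51 had 0.867, 1.192 and 0.363, and Dhcr7 had 0.939, 1.151 and 0.564. Fdft1 was the only 1 of the 8 with a value below 0, at -0.027 on replicate 1, beside 0.332 and 0.298. The medians of the 3 columns over all probes were 0.086, -0.08 and 0.053.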
